A study of Arabidopsis thaliana with 8 samples.

Results

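STOMAGEN (AT4G12970, also called EPFL9) and AT1G22690, a gene of the GASA family that is known for its activity in guard cells, were followed in rosettes of Arabidopsis thaliana. They are 2 of the 3602 genes that the annotation of the Affymetrix AtGenome1 array ties to at least 1 probe set of that gene alone. Each has 1 such probe set, 16312_at for STOMAGEN and 19720_at for AT1G22690. The genes were chosen by their signals in WT and yda-2 on these same 8 arrays, so their values in the comparison of the genotypes are a description and carry no test. RNA came from the aerial parts of wild type (WT) and yda-2 plants, grown in potting mix at 22 °C in constant light and collected as rosettes that had not bolted. The sources used here give neither the accession of the wild type nor the nature of the yda-2 lesion. Each genotype had 4 arrays, and the replicates were grown and harvested at different times. WT and yda-2 arrays of the same number are called a pair, on the assumption that they shared a harvest. The question is how the transcripts of a peptide signal for stomata and of a guard cell gene stand in a mutant of the stomatal pathway.

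Stomata are pores in the leaf epidermis, each framed by a pair of guard cells. STOMAGEN is a small secreted cysteine-rich peptide of the EPF-like family that is made in the mesophyll, the photosynthetic tissue under the epidermis, and promotes the formation of stomata. It competes with the inhibitory peptides EPF1 and EPF2 for the receptor-like protein TMM and receptor kinases of the ERECTA family. These receptors act through the kinase YDA, the gene mutated in yda-2, and a cascade of MAP kinases that restrains the factor SPCH, with which the stomatal lineage starts. GASA proteins are also short, secreted and rich in cysteine, and several are regulated by gibberellin. The promoter of AT1G22690 is widely used to drive expression in guard cells. The genes thus belong to different tissues, STOMAGEN upstream of the receptors and AT1G22690 in the cells that the pathway produces. No peptide was measured here.

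All 8 arrays were scaled by the authors to the same average signal, and their median signal lay between 125.7 and 190.3. The highest signal of an array lay between 22519 and 33920 in pairs 1 and 2 and between 6226 and 10422 in pairs 3 and 4. WT replicate 2 stood apart, with a mean correlation of 0.819 with the other arrays across probe sets, against 0.873 to 0.903 for the other 7. Testing covered the 4788 probe sets whose signal averaged at least 100 over the arrays, and 24.2% of these had their lowest value on that array. Of 11 mesophyll markers 2 had a probe set of their own, the photosynthetic enzyme genes RCA and PRK, with signals of 837 to 22444 and of 4541 to 8363 on the 8 arrays. None of the 12 guard cell, 7 epidermis, 4 trichome, 5 vascular and 4 flower markers had a probe set of its own in the annotation. The guard cell character of AT1G22690 thus has no check here from other guard cell genes. No detection calls were used here, and with 4 arrays a genotype the precision is limited.

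AT1G22690 was more abundant in yda-2 than in WT in all 4 pairs. In WT its signal was 508.8, 935.8, 608.0 and 827.9 in replicates 1 to 4. In yda-2 it was 1260, 2163, 1164 and 1799. All 4 yda-2 arrays lay above all 4 WT arrays, and the groups did not overlap. WT averaged 720.1 ± 196.1 and yda-2 averaged 1596 ± 470 (SD, n = 4 each), so the means lay farther apart than the spread within either genotype. Such a gap between the groups, with yda-2 on top, was found for 1.73% of the tested probe sets, and one with WT on top for 0.647%. In RNA of whole rosettes, more cells of a type and more RNA per cell cannot be told apart.

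The size of the difference was much the same in every pair. The ratio of yda-2 to WT was 2.48 in pair 1, 2.31 in pair 2, 1.91 in pair 3 and 2.17 in pair 4, with a geometric mean of 2.21. On the log2(signal + 16) scale, on which all log2 differences here are given, the mean difference was 1.13 and the 4 pair differences had an SD of 0.16. The median of this SD over all tested probe sets was 0.47, and 4.72% of them had one as small as that of AT1G22690. A difference at least as large as that of AT1G22690 was seen for 1.19% of the tested probe sets, a higher value in yda-2 in all 4 pairs for 9.44%, and a lower value in all 4 for 7.1%. The mean difference was 1.24 within pairs 1 and 2 and 1.01 within pairs 3 and 4, the array sets with high and low maximum signals. Without WT replicate 2 it was 1.26.

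**Figure D1:**
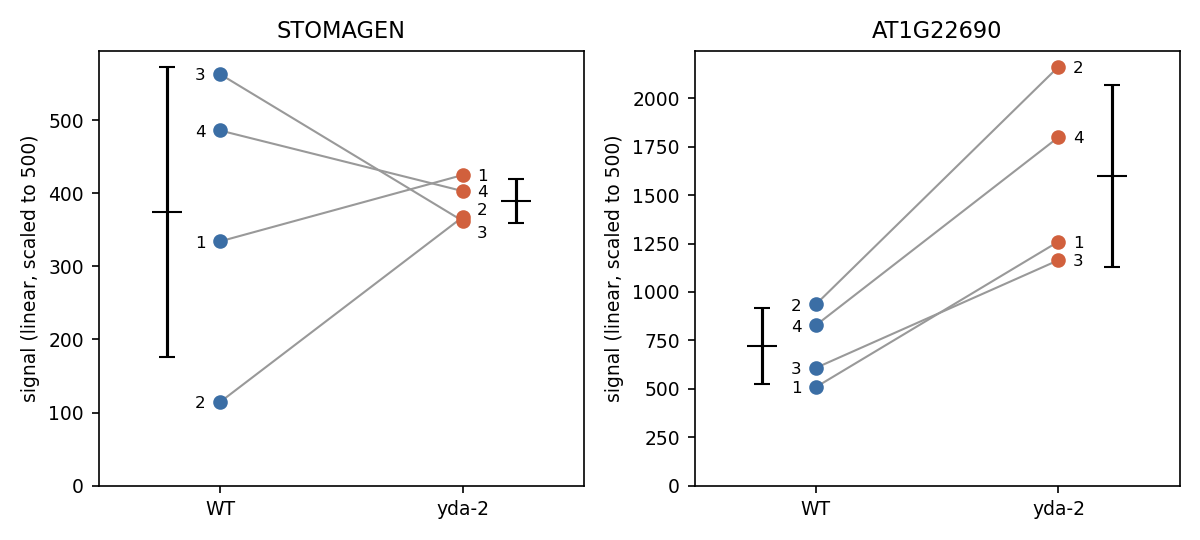
Signal of STOMAGEN (left) and AT1G22690 (right) on each array, on a linear axis from 0, for WT (blue) and yda-2 (orange). Numbers are replicates, grey lines join same-numbered arrays, and black bars give the mean and SD of 4 arrays. All 4 lines of AT1G22690 go up, from 508.8 to 935.8 in WT to 1164 to 2163 in yda-2, while those of STOMAGEN cross.

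Of 4 measures of the arrays themselves, 2 differed between the genotypes in the same direction in 4 of 4 pairs. The 9 probe sets for bacterial and phage control transcripts, which are added to the sample and do not come from the plant, were lower in yda-2 in 4 of 4 pairs, by a mean of -0.39 on the log2 scale. By array, their mean log2 signal lay between 10.67 and 11.24 in pairs 1 and 2 and between 9.06 and 9.63 in pairs 3 and 4. The log2 ratio of the 3′ to the 5′ ubiquitin probe set was higher in yda-2 in 4 of 4 pairs, by a mean of 0.34, while the same ratio for GAPDH was higher in 2 of 4, with a mean of 0.03, and the median signal was higher in 2 of 4, with a mean of 0.04. The part of these measures in the difference of AT1G22690 was not tested. Rescaling the arrays left a difference of 1.06 after quantile normalization, 1.08 after median centring and 1.51 when each array was scaled to the control transcripts.

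STOMAGEN showed no common direction. Its signal was 334.2, 114.3, 563.1 and 486.0 in WT replicates 1 to 4. In yda-2 it was 425.0, 367.4, 362.3 and 403.1. The WT values enclosed all 4 yda-2 values, with WT replicate 2 the lowest and WT replicate 3 the highest of the 8 arrays. The means, 374.4 ± 197.8 for WT and 389.5 ± 29.9 for yda-2 (SD, n = 4 each), differed by less than the spread of the WT arrays. STOMAGEN was higher in yda-2 in pairs 1 and 2, at 1.27 and 3.21 times the WT signal, and lower in pairs 3 and 4, at 0.643 and 0.83 times. The mean log2 difference was 0.94 within pairs 1 and 2 and -0.44 within pairs 3 and 4. The same split of the pairs was seen for 5.93% of the tested probe sets, and the opposite split for 6.95%. Over all pairs the mean log2 difference was 0.25, with an SD of 0.95 over the 4 pairs. It was -0.21 without WT replicate 2 and -0.18 without pair 2.

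The spread of STOMAGEN was wide in WT and narrow in yda-2. The highest WT signal was 4.93 times the lowest, against 1.17 times in yda-2. The SD of the log2 signals was 0.97 in WT, where the median of all tested probe sets was 0.47, and 0.11 in yda-2, where the median was 0.41. A WT SD at least 9.19 times that of yda-2, as STOMAGEN had, was seen for 0.543% of the tested probe sets. WT replicate 2 carried much of it: without that array the WT signals averaged 461.1 ± 116.5 (SD, n = 3), and the WT SD of the log2 signals was 0.37, or 3.54 times that of yda-2. A ratio at least that large, computed without that array, was seen for 2.19% of the tested probe sets. These shares describe where STOMAGEN lies among the probe sets and are not a test.

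**Figure D2:**
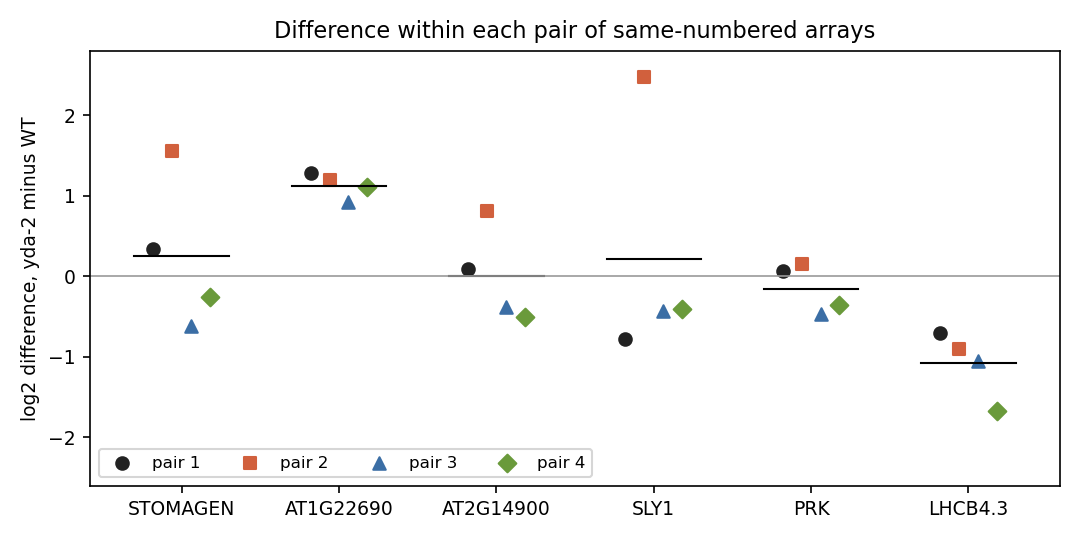
Log2 difference of yda-2 minus WT within each pair of same-numbered arrays (markers) for STOMAGEN, AT1G22690, the GASA family gene AT2G14900, the gibberellin signalling gene SLY1 and the photosynthesis genes PRK and LHCB4.3, with the mean of the 4 pairs as a black line. The points of AT1G22690 lie between 0.92 and 1.28, and those of STOMAGEN between -0.61 and 1.56 with pair 2 the highest.

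Set side by side within each array, which removes any scaling common to its probe sets, AT1G22690 gained on STOMAGEN in 3 of 4 pairs. The log2 ratio of AT1G22690 to STOMAGEN was higher in yda-2 by 0.95, 1.53 and 1.37 in pairs 1, 3 and 4, and differed by -0.36 in pair 2. The mean was 0.87 (SD 0.86, n = 4), and 1.28 without pair 2. Against AT2G14900, the other GASA family gene among the tested probe sets, the log2 ratio of AT1G22690 was higher in yda-2 in 4 of 4 pairs, by 1.19, 0.38, 1.3 and 1.61. These ratios are built from the signals by which the genes were chosen, carry no test and do not show which of the genes changed. Across the 8 arrays the signals of STOMAGEN and AT1G22690 had a Pearson r of -0.02 and a Spearman rho of -0.02. These are given as a description, since the arrays are read as pairs and share their scaling. Without WT replicate 2 the Pearson r was -0.28.

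The level of each pair over both genotypes is also given as a description, since it rests on the same 8 signals. AT1G22690 was high in pairs 2 and 4 and low in pairs 1 and 3 in both genotypes. Its geometric mean signal over the pair was 801, 1423, 841 and 1220 in pairs 1 to 4, and the pair levels spanned 0.82 on the log2 scale. For STOMAGEN the geometric means were 377, 205, 452 and 443, and the span was 1.07. Pair 2 was thus the lowest for STOMAGEN, whose lowest array is WT replicate 2, and the highest for AT1G22690. Harvest and any handling of the arrays that went with it cannot be told apart.

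The genes most like AT1G22690 over the 8 arrays were, like it, higher in yda-2 in each pair. Likeness was the Pearson r of the log2 signals among 2034 other probe sets with 1 gene, and 5 of these, or 0.246%, had an r of at least 0.9. First came ARA6, a plant-specific Rab GTPase of endosomes, with r = 0.96 (Spearman rho 0.98). Its signal was 125.2, 248.5, 195.9 and 223.0 in WT and 271.7, 410.6, 240.7 and 370.2 in yda-2. It was thus higher in yda-2 in 4 of 4 pairs, with pairs 2 and 4 the highest in both genotypes, though the groups overlapped. The others were AT4G33420 at r = 0.92, scpl31, a serine carboxypeptidase-like gene, at r = 0.91, AT2G05540 at r = 0.90 and AT2G48030 at r = 0.90. AT2G05540 had signals of 356.3, 391.5, 502.6 and 463.5 in WT and 856.1, 2090, 1220 and 1335 in yda-2, with all yda-2 arrays above all WT arrays and the highest value, as in AT1G22690, on yda-2 replicate 2. In each of the 5 genes the yda-2 array was the higher one in 4 of 4 pairs, so the difference between the genotypes is part of each r.

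At the other end were 3 probe sets with low values where AT1G22690 was high. AT2G32560 (20616_at) had r = -0.86, and averaged 528.9 ± 75.1 in the WT arrays against 347.1 ± 79.9 in those of yda-2 (SD, n = 4). AT4G02200 (15040_g_at) had r = -0.83 and AT2G35880 had r = -0.81. AT2G32560 and AT4G02200 each have another tested probe set, 15529_at and 15039_at, whose r with AT1G22690 was 0.17 and -0.41. The probe sets of AT2G32560 thus disagreed, and its likeness holds for 20616_at only. Without WT replicate 2, 2 of the 5 genes most like AT1G22690 were still among the first 5, ARA6 (r = 0.97) and AT2G05540 (r = 0.95), and the other 3 had an r of 0.92 (AT4G33420), 0.91 (scpl31) and 0.91 (AT2G48030), close to their values over 8 arrays.

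**Figure D3:**
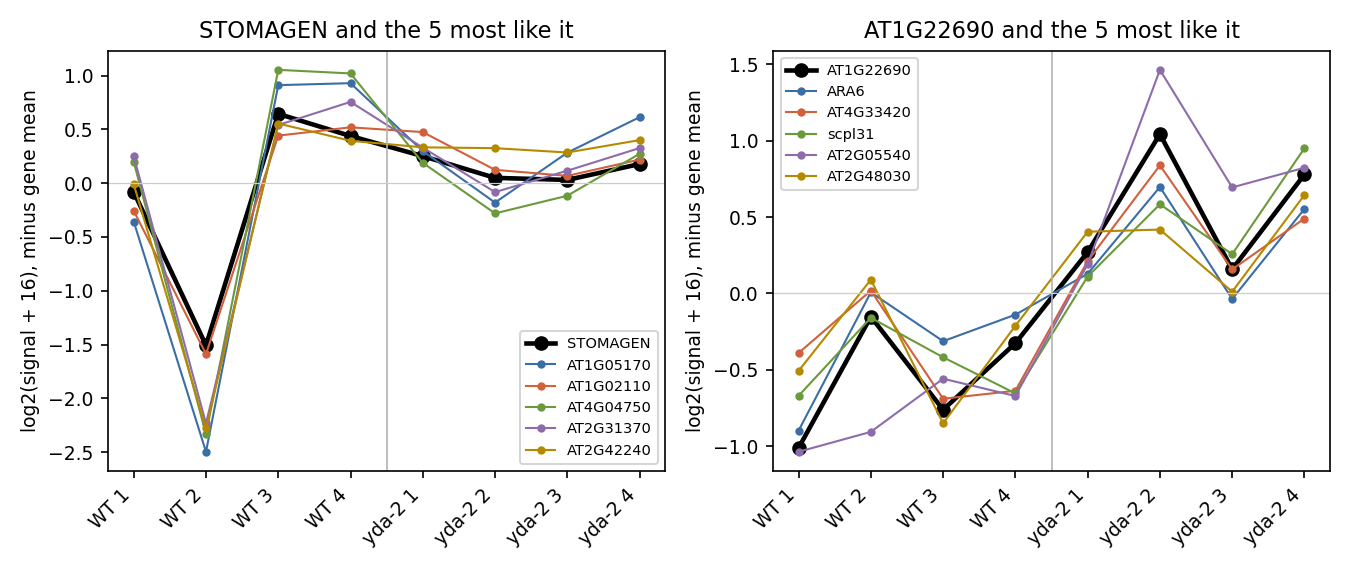
Log2(signal + 16) on each array minus the gene's mean over the 8 arrays, for STOMAGEN (left, black) and AT1G22690 (right, black) with the 5 genes of highest Pearson r (colours). On the left all 6 lines have their lowest point at WT replicate 2; on the right all 6 are higher in yda-2 than in WT in 4 of 4 pairs.

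The genes most like STOMAGEN were those with a low value on WT replicate 2. They were AT1G05170 (r = 0.98), AT1G02110 (r = 0.98), AT4G04750 (r = 0.97), AT2G31370, also called PosF21 (r = 0.97), and AT2G42240 (r = 0.97). AT1G05170 had signals of 88.0, 7.6, 234.4 and 237.6 in WT and 147.8, 101.5, 146.1 and 187.7 in yda-2. On WT replicate 2 the 5 genes lay between 7.4 and 24.1, below each of their other arrays, where the lowest value was 81.1. An r of at least 0.9 with STOMAGEN was reached by 2.56% of the 2034 probe sets over 8 arrays and by 0.0983% without WT replicate 2. None of the 5 was among the 5 most like without that array, where their r lay between 0.76 and 0.88. The lowest r belonged to AT4G33980 (-0.96), AT4G02720 (-0.95) and AT2G34250 (-0.95), which had their highest value on WT replicate 2, at 345.2, 288.5 and 3027. Without that array their r was -0.66, -0.81 and -0.78.

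**Figure D4:**
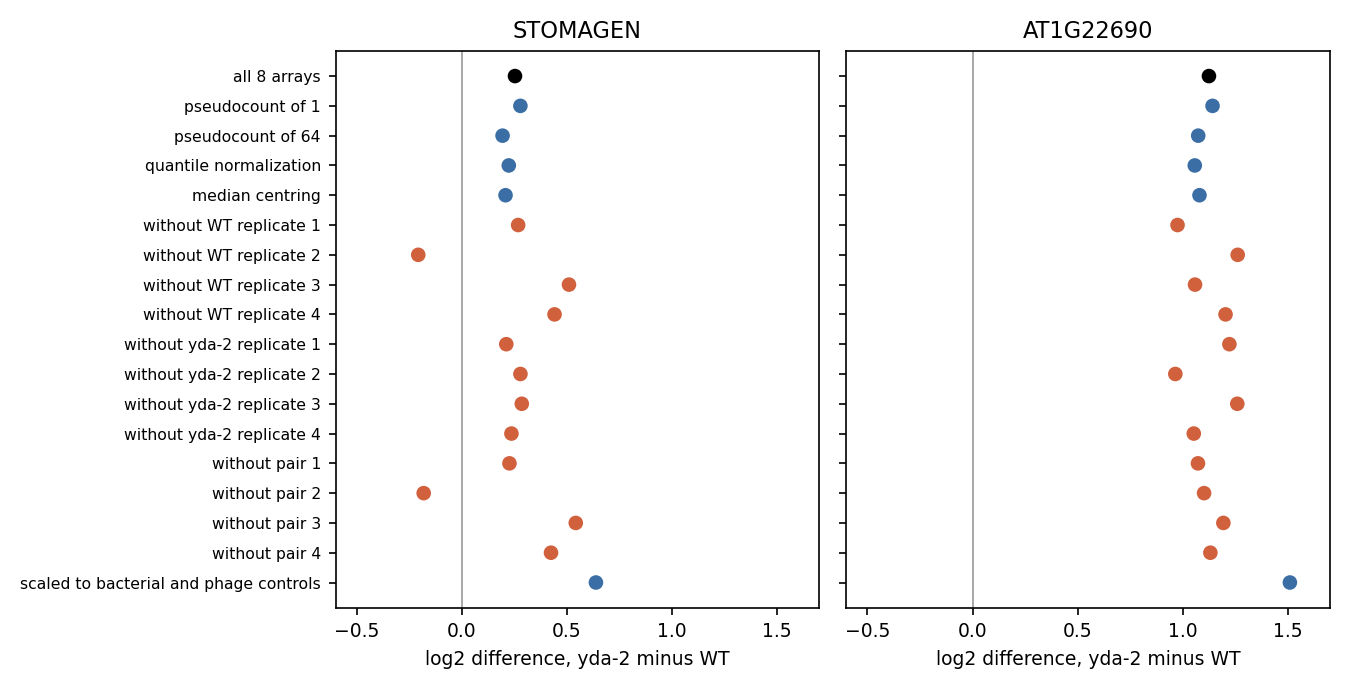
Log2 difference of yda-2 minus WT for STOMAGEN (left) and AT1G22690 (right) over all 8 arrays (black), under other pseudocounts and scalings (blue) and without single arrays or pairs (orange). AT1G22690 stays between 0.97 and 1.51, and STOMAGEN turns from 0.25 to -0.21 without WT replicate 2 and to -0.18 without pair 2.

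Other genes of the same families and pathways could be followed only in part. Of 35 stomatal pathway genes (peptides, receptors, proteases, MAP kinases and lineage factors) STOMAGEN alone had a probe set of its own, and of 21 guard cell genes and 5 regulators of STOMAGEN none had. Such genes may still be on the array, since 4383 of the 8247 probe sets other than controls have no gene in the annotation. As a background, 2 of the 4788 tested probe sets, or 0.0418%, were called higher in yda-2 by limma at an adjusted p of 0.05 and 0 were called lower, with 118 (2.46%) and 36 (0.752%) at an unadjusted p under 0.05. With the replicate pairs as a block 9, or 0.188%, were called higher and 0 lower, with 216 (4.51%) and 124 (2.59%) at an unadjusted p under 0.05.

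Of 14 genes listed here as GASA family, 5 had a probe set of their own and 2 of these were tested, AT1G22690 and AT2G14900. The gene table gives no family for these loci, and their place in it comes from the list drawn up for this work. AT2G14900 had a signal of 453.4, 281.2, 603.0 and 732.7 in WT and of 482.6, 506.1, 459.6 and 512.3 in yda-2. The WT values enclosed those of yda-2, as they did for STOMAGEN, and again WT replicate 2 was the lowest array. Its log2 difference was 0.004 (SE 0.29, limma adjusted p = 1.00, and -0.25 without WT replicate 2). The remaining 3, AT2G30810, AT2G39540 and AT2G18420, had mean signals of 13.9 to 56.7 in either genotype, under the minimum for testing. AT2G18420 was at 136.3 on WT replicate 2 and at 7.9 to 18.5 on the other arrays.

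Of 18 gibberellin genes 1 had a probe set of its own. That gene was SLY1, which encodes the F-box protein that marks DELLA repressors for breakdown. Its signal was 269.9, 16.5, 380.7 and 415.0 in WT and 151.2, 164.4, 279.3 and 308.5 in yda-2. It was lower in yda-2 in pairs 1, 3 and 4 and higher in pair 2, where the WT array was the lowest of the 8. Its log2 difference was 0.22 (SE 0.71, limma adjusted p = 1.00) and -0.66 without WT replicate 2 (limma adjusted p = 1.00).

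Of 30 photosynthesis genes of the mesophyll, where STOMAGEN is expressed, 7 were tested, each by its brightest probe set. All 7 had a mean log2 difference below 0, as did 2251 of the 4788 tested probe sets. Their median was -0.34 beside 0.02 over all tested probe sets. Only LHCB4.3 was lower in yda-2 in 4 of 4 pairs, and each of the others was higher in 1 or 2 pairs. By limma 0 of the 7 were called with or without the block. The gene lists were chosen with earlier results of these data known, so all p-values of these 7 genes are a description. At an unadjusted p under 0.05 stood 1 of 7 in either fit, beside 3.22% and, with the block, 7.1% of all tested probe sets. The lowest were LHCB4.3 at -1.08 (blocked adjusted p = 0.119) and LHCB4.1 at -0.81 (blocked adjusted p = 0.781), both genes of light-harvesting antenna proteins. The highest were PRK at -0.15 and the photosystem I subunit gene PSAE-1 at -0.18, whose other probe sets 18088_i_at and 18089_r_at were at -0.12 and 0.20. Between pairs, 6 of the 7 passed limma's moderated F test of the replicate number, with genotype in the model, at an adjusted p of 0.05. Of all tested probe sets 8.29% passed it (27.7% at an unadjusted p under 0.05). In both genotypes the maximum signals and the control transcripts of the arrays were also lower in pairs 3 and 4 than in pairs 1 and 2. The part of these array differences in the F test of the 7 genes was not tested. PRK did not pass this F test (adjusted p = 0.232). The signal of LHCB4.1 was 24004, 21024, 2248 and 186.4 in WT and 27755, 10213, 203.0 and 382.9 in yda-2, high in pairs 1 and 2 and low in pairs 3 and 4 in both genotypes. STOMAGEN was higher in yda-2 in the first of these sets of pairs and lower in the other, and the part of whatever set them apart in that split was not tested. The median genotype difference of the 7 genes turned to 0.005 without WT replicate 2 and to 0.02 without yda-2 replicate 3 or yda-2 replicate 4. Relative to PRK within each array, STOMAGEN differed between the genotypes by 0.27, 1.41, -0.15 and 0.10 in pairs 1 to 4 on the log2 scale. The mean of these was 0.41, and 0.07 without pair 2.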

How the data were processed

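The authors deposited linear signal intensity for each probe set on 8 AtGenome1 arrays, and per the labels the average signal of each array was scaled to 500. The sources used here name no summary algorithm or software. Column names are the samples, and genotypes and replicate numbers come from the titles. The table holds 8297 probe sets, 50 of them controls. Of the other 8247, 3794 have 1 gene in the platform annotation, 70 have several and 4383 have none; 3784 were matched by gene identifier to the symbols of assembly TAIR10.1. That assembly is used for names alone, and YDA was not analysed here.

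Values were taken as log2(signal + 16), a scale that understates fold changes of dim probe sets. The 4788 probe sets whose signal averaged at least 100 were tested with limma 3.58.1 in R 4.3.3 (lmFit, eBayes with the intensity trend, two-sided, Benjamini-Hochberg adjustment, threshold 0.05), with the replicate pairs as a block only where stated. Fits were tested on simulated data with noise independent between arrays. Those data hold no array that stands apart as WT replicate 2 does, so the test does not cover such an array. Figures were drawn with matplotlib 3.10.9. Deviations of same-numbered arrays from their group means correlated at 0.596, 0.296, 0.324 and 0.577 across probe sets, and per the labels replicates were grown and harvested at different times, so the numbers were taken to pair the arrays.

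The members and gene lists were chosen with earlier results of these data known, so the p-values of listed genes are a description. The text names STOMAGEN, AT1G22690, each gene of the stomatal, GASA, gibberellin and guard cell lists that has a probe set of its own, the 2 lowest and 2 highest photosynthesis genes, and the 5 most and 3 least like genes of either member. Neighbours by signal, also planned, were left out because signals of different probe sets are not comparable. The planned test of the replicate pair effect for STOMAGEN and AT1G22690 is not reported, because their choice used the same arrays and pairs. Alternatives were pseudocounts of 1 and 64, no filter and a minimum of 200, quantile normalization, median centring, no trend, the replicate block and leaving out each array or pair; scaling to control transcripts, the block with either normalization and likeness without WT replicate 2 were added after seeing the data.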

Additional observations from a re-analysis of the deposited data

Results flagged for a closer look

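Each of 38 genes (those the text names and the photosynthesis genes PSBW and HPR) was screened in both genotypes, which made 76 groups of 4 arrays. The gap of the most distant array to the next, divided by the range of the log2 signals, was above Dixon's 95% critical value in 8 groups, where chance alone gives about 1 group in 20. The distant array was WT replicate 2 in 6 of them and another array in 2. AT2G18420 was at 136.3 on WT replicate 2 against 8.2 to 11.4 in the other WT arrays (gap over range 0.932), and SLY1 was at 16.5 against 269.9 to 415.0 (0.841). AT2G31370 was at 16.3 against 164.7 to 240.4 (0.831), and AT4G33980 was at 345.2 against 124.6 to 142.4 (0.874). AT2G32560 (20616_at) was at 418.2 against 546.4 to 576.6 (0.832), and AT2G25320 was at 332.4 against 86.5 to 101.2 (0.890). AT4G27720 was at 253.4 on WT replicate 1 against 514.3 to 555.9 (0.90), and ATBCAT-5 was at 434.8 on yda-2 replicate 3 against 576.3 to 602.7 (0.862). AT2G31370, AT4G33980, AT2G32560, AT2G25320, AT4G27720 and ATBCAT-5 were named for their likeness or unlikeness to STOMAGEN or AT1G22690 with or without WT replicate 2, and that choice bears on where their distant values lie. STOMAGEN and AT1G22690 themselves had no array beyond the critical value.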

How the results depend on the processing

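The difference of AT1G22690 kept its direction under all 22 alternatives, from 0.97 without yda-2 replicate 2 to 1.51 with arrays scaled to the control transcripts. In 12 of these, arrays or pairs were left out, which could not reverse it, since all its yda-2 values lay above all its WT values. The filters and the block cannot change a difference of group means, so they add no support. The difference of STOMAGEN kept its direction under all but 2, at -0.21 without WT replicate 2 and -0.18 without pair 2. It lay between 0.19 and 0.64 under other scalings, pseudocounts and filters, between -0.21 and 0.51 without 1 array, and between -0.18 and 0.54 without 1 pair. AT2G14900, at 0.004, turned to -0.0034 with a pseudocount of 64 and to -0.041 after median centring with or without the block, lay between -0.25 and 0.19 without 1 array, and between -0.27 and 0.17 without 1 pair (-0.023 without pair 1). SLY1 turned to -0.065 after quantile normalization with or without the block, and lay between -0.66 and 0.59 without 1 array and between -0.54 and 0.55 without 1 pair. The photosynthesis median lay between -1.07 and 0.02 when arrays or pairs were left out, at 0.005 without WT replicate 2 and at 0.018 and 0.022 without yda-2 replicate 3 and 4. The cause of these turns was not tested.

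The count of 2 probe sets called between the genotypes was 0 with a pseudocount of 1, a minimum of 200, quantile normalization or median centring. The count was 1 without a filter, 2 with a pseudocount of 64, 3 without the trend, and 0 to 2 without 1 array. It was 9 with the replicate block, 0 to 28 with the block and 1 pair left out, and 0 with the block after either normalization. Of the named genes other than STOMAGEN and AT1G22690, the block changed the call of AT2G05540 (limma adjusted p from 0.145 to 0.0436) and CHI (0.145 to 0.0333) and of no other. Both were named for their likeness to AT1G22690, which was itself chosen by its signals in the genotypes. Their limma p-values are therefore a description and not a test. The count of 397 for the replicate pair effect was 230 without a filter, 191 after quantile normalization, 138 without the trend and 51 to 646 without 1 pair. The likeness of the genes lay between -0.28 and 0.19. No detection calls were used here, so low signals, as several on WT replicate 2, have no order that can be relied on.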

Other observations

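Without WT replicate 2 the genes most like STOMAGEN over the remaining 7 arrays were AT4G27720 (r = 0.93), ATBCAT-5, a branched-chain aminotransferase gene (r = 0.90), AT5G40150 (r = 0.90), AT5G51890 (r = 0.89) and GPDHC1, a cytosolic glycerol-3-phosphate dehydrogenase gene (r = 0.89). Their r over all 8 arrays was -0.04, 0.59, 0.94, 0.30 and -0.25. AT4G27720 had signals of 253.4, 514.3, 533.6 and 555.9 in WT and 364.6, 351.4, 328.9 and 384.7 in yda-2, and on WT replicate 2, where STOMAGEN had its lowest value, it had one of its 3 highest. The genes most like AT1G22690 without that array were ARA6, AT2G25320 (r = 0.96, and 0.30 over 8 arrays), AT2G05540, CHI, a putative chitinase gene (r = 0.94), and AT2G07000 (r = 0.92). All of them are given as descriptions of these arrays.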
